A study of Mus musculus with 6 samples.

Results

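The heat shock and DnaJ chaperones were followed through 6 mouse RNA-seq libraries. Members were all genes whose symbol in the authors' table begins with Hspa, Hspb, Hspd, Hspe, Hsph or Hsp90, or with Dnaja, Dnajb or Dnajc and a number, with at least 10 counts summed over the 6 libraries. Of 38924 Ensembl genes, 73 matched by name and 69 had enough counts. Hspa1a and Hspa1b are near-identical copies whose reads cannot be assigned with certainty, so they were summed, which left 68 members. The 4 left out were Dnajb13 with 9 counts, Dnajc22 with 6, Hspb9 with 4 and Dnajb8 with 0, and the members nearest to the minimum were Dnajb7 with 25 and Dnajc6 with 46. The name rule also took in Hspbp1 and Hspbap1, which are not heat shock proteins but are named as partners of them, and 2 Ensembl genes that share the symbol Hspa14.

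The study set induced myogenic progenitor cells (iMPCs), muscle progenitors reprogrammed from mouse fibroblasts, beside satellite cells, which are muscle stem cells. Its groups were iMPCs positive and iMPCs negative for a nuclear green fluorescent Pax7 reporter, sorted, with 1 library each, activated satellite cells (ASC; Pax7-plus and p1 in their title) with 1 library, mouse embryonic fibroblasts (MEFs), with 1 library, and quiescent satellite cells (QSC), with 2 libraries from mouse 1 and mouse 3. Per the labels, expanded iMPC cultures were grown without doxycycline, with forskolin, RepSox and a GSK3 inhibitor; the labels do not say which fibroblasts gave these iMPCs, in which medium ASC and MEFs were kept, or how any animal differed in strain, age or sex. Library totals lay between 20859611 counts in ASC and 29279686 in QSC of mouse 1. The summed level of 6 satellite and myogenic markers was 4614 CPM (counts scaled to the TMM-adjusted library size) in Pax7-positive iMPCs, 3727 in Pax7-negative iMPCs, 6224 in ASC, 56.7 in MEFs, and 4205 and 4620 in QSC of mouse 1 and mouse 3. Of 8 fibroblast markers the sum was highest in MEFs, at 18490 CPM, and next in Pax7-negative iMPCs, at 8548 CPM. Against QSC, 1 of the 6 satellite markers was up and 1 down by the test below in Pax7-positive iMPCs, 1 and 2 in Pax7-negative iMPCs, 1 and 0 in ASC and 0 and 6 in MEFs; of the fibroblast markers 3 rose and 2 fell, 7 and 0, 1 and 2, and 7 and 1 in the same order of groups.

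Chaperones bind unfolded or partly folded proteins and help them to reach or regain their shape. HSP70 proteins do this in cycles of ATP use that DnaJ proteins (also called HSP40) start and that HSP110 proteins, as nucleotide exchange factors, complete; HSP90 acts on a late folding stage of kinases and receptors, HSP60 with HSP10 forms a folding chamber in mitochondria, and small heat shock proteins hold unfolded chains without ATP. Under heat or protein damage the transcription factor HSF1 binds heat shock elements, alternating repeats of GAA and TTC, and drives the inducible members, whereas the unfolded protein response of the endoplasmic reticulum acts on another element with a CCAAT and a CCACG end. In muscle, several small heat shock proteins and the co-chaperone Bag3 are known for the upkeep of the contractile apparatus.

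Promoters of some members that carry a searched motif are shown first, and not all of these members passed in the tests below. The promoters were taken from RefSeq on build GRCm38.p6, which is not the mm9 build of the counts. Each run is the 250 bases before a start site, 5′ to 3′ on the gene's strand, and motifs were searched on both strands. Capitals in the first set mark 2 heat shock units side by side (GAANNTTC). Hspa1a and Hspa1b encode the main stress-inducible HSP70 and Hspb1 the small heat shock protein HSP25. The Hspa1a run is at chr17:34972157-34972406 (minus strand), the Hspa1b run at chr17:34959239-34959488 (minus strand) and the Hspb1 run at chr5:135887669-135887918 (plus strand).
Hspa1a: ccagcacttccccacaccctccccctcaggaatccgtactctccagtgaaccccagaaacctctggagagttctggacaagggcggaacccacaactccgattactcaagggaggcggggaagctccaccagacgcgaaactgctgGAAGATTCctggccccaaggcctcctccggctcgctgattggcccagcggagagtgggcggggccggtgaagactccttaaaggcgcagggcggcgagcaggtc
Hspa1b: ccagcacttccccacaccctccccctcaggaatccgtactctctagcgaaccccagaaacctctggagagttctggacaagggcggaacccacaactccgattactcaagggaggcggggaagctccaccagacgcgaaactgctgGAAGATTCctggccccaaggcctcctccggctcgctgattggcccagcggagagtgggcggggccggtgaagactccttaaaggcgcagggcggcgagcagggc
Hspb1: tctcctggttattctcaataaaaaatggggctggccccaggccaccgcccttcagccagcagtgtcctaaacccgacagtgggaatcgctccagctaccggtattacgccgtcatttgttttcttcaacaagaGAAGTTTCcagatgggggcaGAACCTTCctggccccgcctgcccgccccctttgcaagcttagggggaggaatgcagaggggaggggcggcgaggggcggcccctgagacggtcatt
The Hspa1a and Hspa1b runs were identical at 247 of 250 bases, so the copies resemble each other upstream as well as in their transcripts. Hspb1 held the pair of units at 2 places.

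The second set carries the element of the endoplasmic reticulum stress response (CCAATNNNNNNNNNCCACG), in capitals, at the 3 member genes that have it. Hspa5 encodes BiP, the HSP70 of the endoplasmic reticulum, Dnajc3 a DnaJ protein of the same compartment, and Hsp90b1 its HSP90. The runs are at chr2:34771840-34772089 (plus strand), chr14:118937682-118937931 (plus strand) and chr10:86705445-86705694 (minus strand).
Hspa5: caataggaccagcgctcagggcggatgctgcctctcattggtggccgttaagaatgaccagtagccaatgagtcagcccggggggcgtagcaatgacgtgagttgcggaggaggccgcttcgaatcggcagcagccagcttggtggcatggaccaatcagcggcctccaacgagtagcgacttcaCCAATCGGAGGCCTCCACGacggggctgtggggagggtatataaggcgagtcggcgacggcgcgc
Dnajc3: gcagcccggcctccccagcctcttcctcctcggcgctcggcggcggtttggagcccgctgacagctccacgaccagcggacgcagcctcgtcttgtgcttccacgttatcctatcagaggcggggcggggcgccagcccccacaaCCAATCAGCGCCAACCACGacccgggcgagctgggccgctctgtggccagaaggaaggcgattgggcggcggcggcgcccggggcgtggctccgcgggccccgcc
Hsp90b1: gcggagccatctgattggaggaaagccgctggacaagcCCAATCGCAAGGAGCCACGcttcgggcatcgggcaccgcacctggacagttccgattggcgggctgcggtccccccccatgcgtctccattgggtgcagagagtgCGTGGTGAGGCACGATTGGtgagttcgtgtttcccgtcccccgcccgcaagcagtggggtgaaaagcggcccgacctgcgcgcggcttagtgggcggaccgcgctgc
The last sequence is a 30-base stretch between Hspd1 and Hspe1, the genes of mitochondrial HSP60 and HSP10, which lie head to head and have this stretch upstream of both. It is at chr1:55088053-55088082, given on the plus strand, the strand of Hspe1, and its capitals mark overlapping heat shock elements of 3 units.
Hspe1 and Hspd1: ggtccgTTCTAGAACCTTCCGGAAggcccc

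RefSeq promoters, from 250 bases before to 50 after a start, were found for 56 member genes. A heat shock element of 3 units (GAANNTTCNNGAA) was present in 4 of them, Hsph1, Hspe1, Hspd1 and Dnajb6, against 0.662% of 27025 genes. Because this form is strict, 2 units in either order (GAANNTTC or TTCNNGAA) were searched afterwards; every 3-unit match also holds both. That shorter form was in 15 of 56 member genes, against 17% of all genes. The endoplasmic reticulum element was in 3 of 56, against 0.137% of all genes. A match is only a run of letters in this window.

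Chaperone transcripts took a far larger part of QSC libraries than of any cultured library. The 68 members held 1.42% of all gene counts in Pax7-positive iMPCs, 1.22% in Pax7-negative iMPCs, 1.43% in ASC and 1.58% in MEFs, against 8.45% and 10.73% in QSC of mouse 1 and mouse 3. The 4 cultured libraries lay close together and well below both QSC libraries. The Hspa1a and Hspa1b pair alone took 3.20% and 3.82% of QSC counts, more than any other gene in both mice, against 0.00116% in Pax7-positive iMPCs, 0.0059% in Pax7-negative iMPCs, 0.00377% in ASC and 0.0166% in MEFs. Without the pair the other members still held 1.42% of counts in Pax7-positive iMPCs, 1.21% in Pax7-negative iMPCs, 1.42% in ASC and 1.57% in MEFs, against 5.25% and 6.91% in QSC. All 95% Wilson intervals of these shares were narrow and cover counting error only; the pair's reached from 0.00104% to 0.0013% in Pax7-positive iMPCs.

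By class, HSP70 led in QSC with 6.04% and 6.65% of counts, against 0.462% in Pax7-positive iMPCs, 0.413% in Pax7-negative iMPCs, 0.495% in ASC and 0.546% in MEFs. HSP90 genes took 0.371%, 0.333%, 0.337% and 0.52% in Pax7-positive iMPCs, Pax7-negative iMPCs, ASC and MEFs, against 0.975% and 1.31% in QSC. DnaJB genes were at 0.0627% in Pax7-positive iMPCs, 0.0659% in Pax7-negative iMPCs, 0.0788% in ASC and 0.0738% in MEFs, against 0.42% and 0.766% in QSC. The DnaJC class ran the other way: its 25 genes held 0.196% of counts in Pax7-positive iMPCs, 0.169% in Pax7-negative iMPCs, 0.155% in ASC and 0.151% in MEFs, against 0.127% and 0.107% in QSC. As shares, all 4 cultured libraries were above both QSC libraries in DnaJC and below both in HSP70, HSP110, HSP90, DnaJA, DnaJB and the small heat shock proteins, which held 0.0181%, 0.0257%, 0.145% and 0.0464% in Pax7-positive iMPCs, Pax7-negative iMPCs, ASC and MEFs, against 0.267% and 0.994% in QSC. The DnaJC order did not hold on the TMM (trimmed mean of M values) scale, with summed CPM of 1660 in Pax7-positive iMPCs, 1396 in Pax7-negative iMPCs, 1391 in ASC and 1316 in MEFs, against 1774 and 1403 in QSC. HSP60 with HSP10 also depended on the scale: by share Pax7-positive iMPCs had 0.155%, between 0.139% and 0.207% in QSC, while by TMM-scaled CPM the cultured libraries, at 1318 in Pax7-positive iMPCs and less in the others, were below 1941 and 2716 in QSC.

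**Figure D1:**
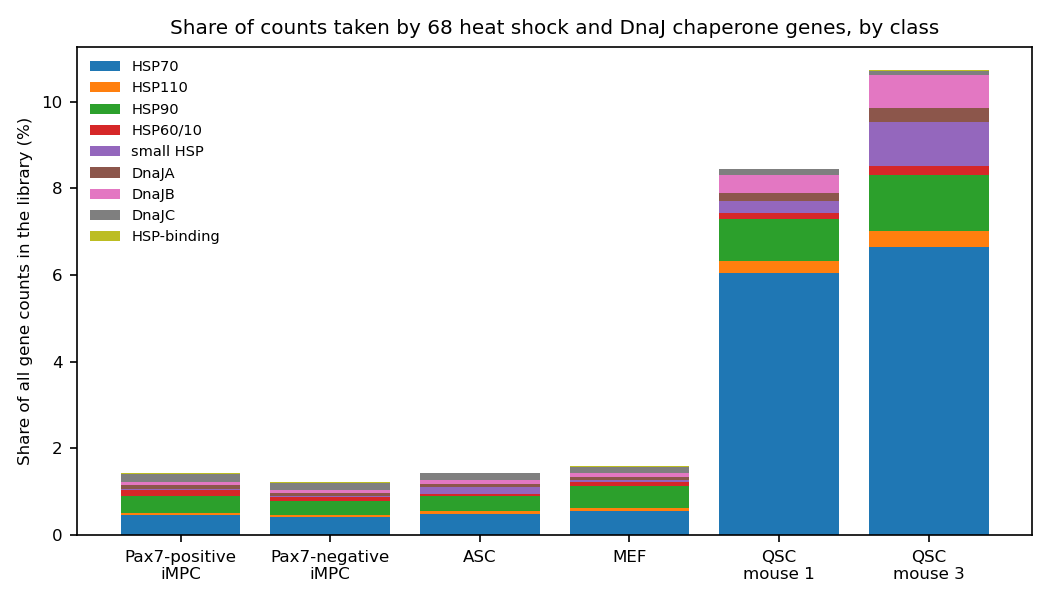
Stacked bars give the share of all gene counts in each library, in percent, taken by each chaperone class (1 bar per library, no replicate error). The 4 cultured libraries stand between 1.22% and 1.58%, and QSC of mouse 1 and mouse 3 at 8.45% and 10.73%, most of it HSP70.

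Each cultured group was compared with QSC by edgeR's two-sided quasi-likelihood test, with p-values adjusted by Benjamini-Hochberg over 17115 genes and a threshold of 0.05; 67 members were tested and Dnajb7, with 25 counts, was too low. Of these, 7 rose and 21 fell in the Pax7-positive iMPC library, where 11.3% of all genes rose and 9.34% fell. In Pax7-negative iMPCs 6 rose and 18 fell, against 12.1% and 6.61% of all genes. In ASC 7 rose and 15 fell, against 11.9% and 8.31% of all genes. In MEFs 6 rose and 16 fell, against 11.4% and 8.12% of all genes. The 4 comparisons share the QSC libraries, so they are not independent of each other.

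The median log2 fold change of the tested members was -0.37 in Pax7-positive iMPCs, -0.52 in Pax7-negative iMPCs, -0.15 in ASC and -0.65 in MEFs, beside -0.03, 0.15, 0 and 0 over all genes. In all, 35 tested members passed in no comparison, Hspa12a, Hspa4, Hspb11, Dnaja2, Dnaja3, Dnajb6, both Hspa14 genes, Hspbp1 and Hspbap1 among them. With library size alone the median of all genes moved to 0.60, 0.86, 0.59 and 0.61, and 8, 6, 4 and 6 members fell in Pax7-positive iMPCs, Pax7-negative iMPCs, ASC and MEFs, while 9, 8, 9 and 6 rose. Over all genes, 3.07%, 1.92%, 2.94% and 2.68% fell and 11.7%, 12.5%, 11% and 10.7% rose under that scaling, in the same order of groups. Every one of the 96 calls kept its direction, as the small shift of the all-gene medians made likely, and 50 of them still passed. Fold changes below are on the TMM scale. A bulk library cannot tell fewer cells of a type from less RNA per cell, each cultured group has 1 library and no replicate check, and the p-values rest on the spread between the 2 QSC mice, which the lone libraries are assumed to share.

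**Figure D2:**
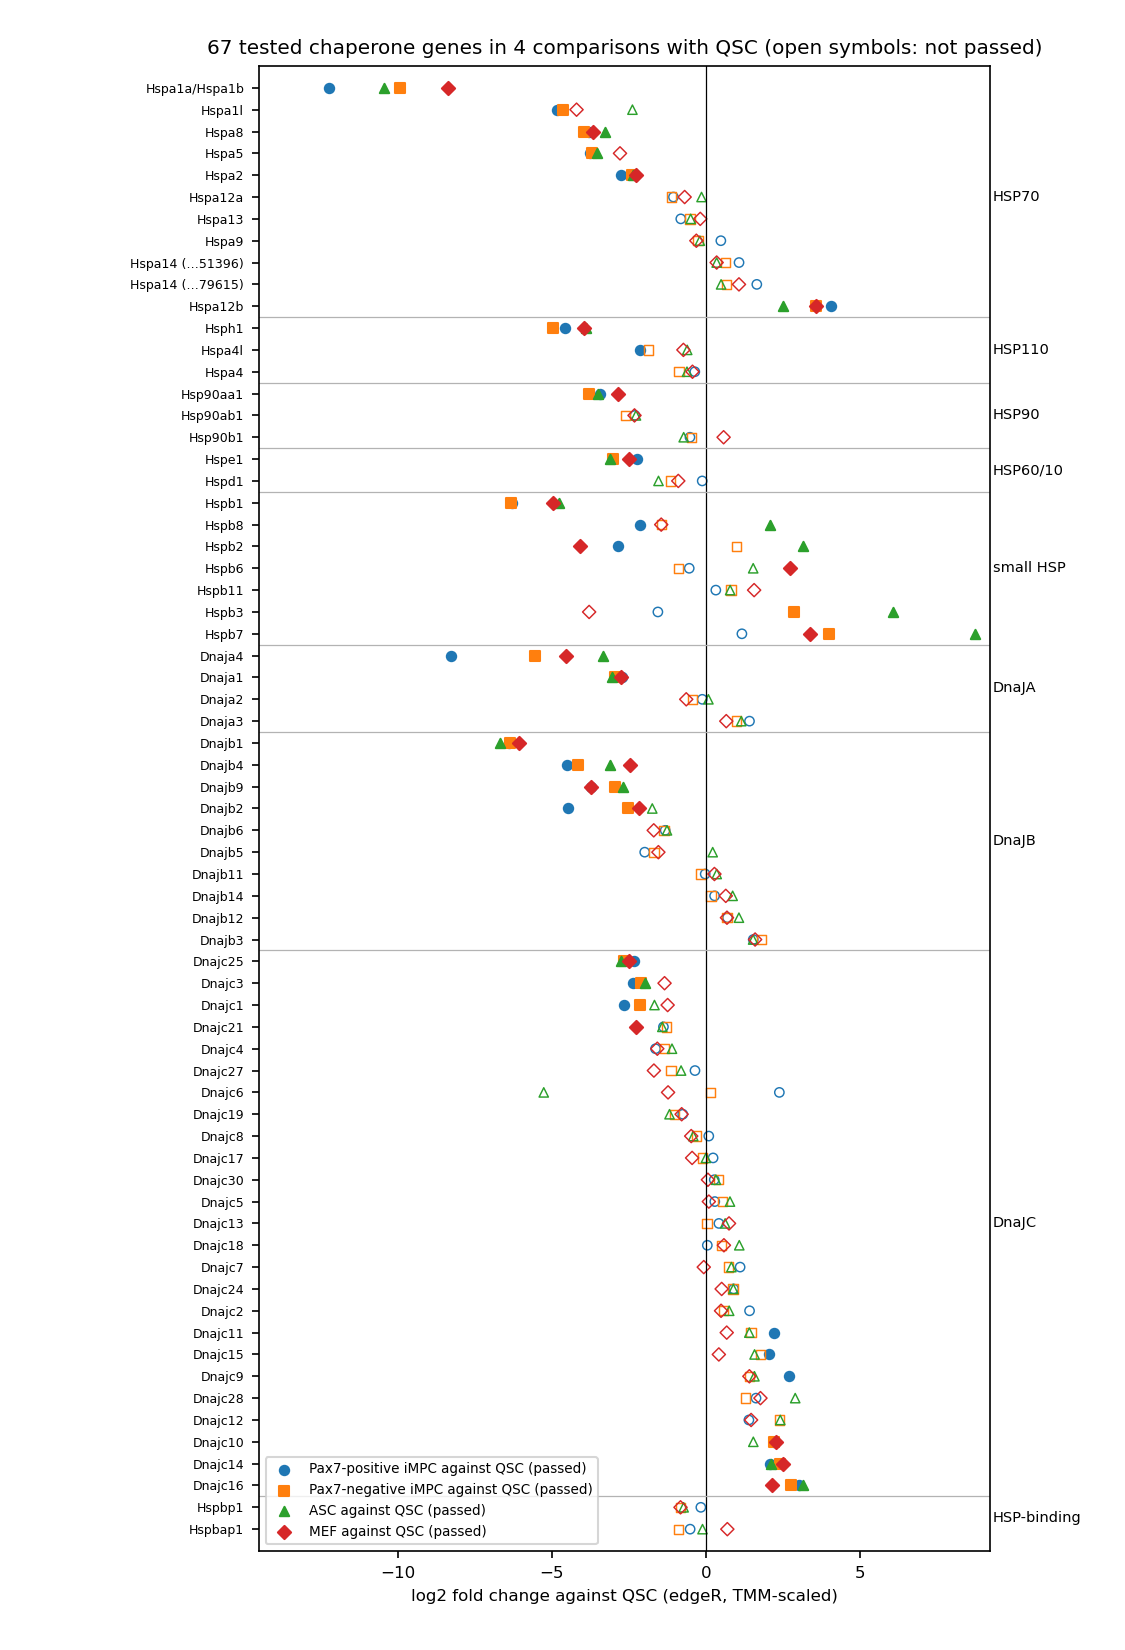
Points give the log2 fold change against QSC (x axis, edgeR with TMM scaling) of the 67 tested members, grouped by class down the page, with 1 symbol per comparison, filled where the adjusted p was under 0.05. The Hspa1a and Hspa1b pair lies farthest left, from -12.23 to -8.36, and Hspb7 in ASC farthest right, at 8.70.

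The pair Hspa1a (ENSMUSG00000091971) and Hspa1b (ENSMUSG00000090877) showed the widest difference of all members. It had 306 counts in Pax7-positive iMPCs, 1443 in Pax7-negative iMPCs, 787 in ASC and 3863 in MEFs, against 935773 and 1106665 in QSC of mouse 1 and mouse 3. The pair fell in each comparison, with a log2 fold change of -12.23 ± 1.86 (SE) in Pax7-positive iMPCs (edgeR quasi-likelihood adjusted p = 0.00024), -9.92 ± 1.71 in Pax7-negative iMPCs, -10.45 ± 1.74 in ASC and -8.36 ± 1.60 in MEFs. Fitted as separate rows, both copies fell in all 4 comparisons, with -12.83 for Hspa1a and -11.81 for Hspa1b in Pax7-positive iMPCs. Among the cultured libraries MEFs had the most, and Pax7-positive iMPCs the least, of this transcript.

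In all, 13 of 67 tested members fell in all 4 comparisons, where 3.81% of all genes did. Beside the pair they were Hspa8, Hspa2, Hsph1, Hsp90aa1, Hspe1, Hspb1, Dnaja1, Dnaja4, Dnajb1, Dnajb4, Dnajb9 and Dnajc25, so each class but HSP-binding is represented. In each of these 13 the 4 cultured libraries were below both QSC libraries, which their choice by calls from the same libraries made likely. Among the 12 genes of this set with a RefSeq promoter, counting Hspa1a and Hspa1b singly, 8 held 2 heat shock units, as shown above for 4 of them. So did 3 of the 27 member genes that passed in no comparison and 0 of the 7 that fell in 1 to 3 comparisons. Of the 9 that only rose 3 did, as did the 1 called in both directions. Of the 12, Dnajb1, Dnajb9, Dnajc25 and Hspa2 held no such match. Over all genes 17% held it, in a search made after that for the strict form. Hspa1a and Hspa1b were both among the 8, although their runs were identical at 247 of 250 bases. Whether these sets of genes differed in the motif was not tested. Under library size scaling the falls of the pair, Dnajb1 and Hsph1 passed in all 4 comparisons, those of Dnaja4 and Dnajb4 in 3, those of Hspb1 and Dnajb9 in 2, and the other falls of this set no longer passed. Over all genes, 0.952% fell in all 4 under library size scaling. Under DESeq2, 16 members fell in all 4, against 6.72% of all genes.

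Dnajb1 encodes the main cytosolic HSP40 that works with inducible HSP70. It had 2348 counts in Pax7-positive iMPCs, 2281 in Pax7-negative iMPCs, 1424 in ASC and 2526 in MEFs, against 90287 and 184526 in QSC. Its log2 fold change was -6.39 ± 1.11 in Pax7-positive iMPCs (edgeR quasi-likelihood adjusted p = 0.00074), -6.36 ± 1.11 in Pax7-negative iMPCs, -6.69 ± 1.13 in ASC and -6.07 in MEFs. The 4 cultured libraries lay between 61.3 and 94.4 CPM, with no replicates to judge the spread among them. Per transcript length, as RPKM, Dnajb1 stood at 0.371 times the level of the constitutive Dnaja2 in Pax7-positive iMPCs, 0.47 in Pax7-negative iMPCs, 0.262 in ASC and 0.664 in MEFs, against 18 and 40.6 times in QSC.

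Dnaja4, a cytosolic DnaJ protein, had the widest range among the cultured libraries of the 13 members that fell in all 4, from 2.41 CPM to 73.6 CPM. Counts were 75 in Pax7-positive iMPCs, 476 in Pax7-negative iMPCs, 1708 in ASC and 856 in MEFs, against 7849 and 25045 in QSC. Its log2 fold change was -8.28 ± 1.07 in Pax7-positive iMPCs (edgeR quasi-likelihood adjusted p = 7.3e-05), -5.55 ± 0.93 in Pax7-negative iMPCs, -3.36 ± 0.82 in ASC and -4.56 ± 0.88 in MEFs. Dnajb4, a close relative of Dnajb1, had 782 counts in Pax7-positive iMPCs, 958 in Pax7-negative iMPCs, 1518 in ASC and 2767 in MEFs, against 10819 and 13821 in QSC, and fell in all 4, with log2 values from -4.50 to -2.46. Dnaja1, the most abundant DnaJA member, had 11328, 9412, 6799 and 9621 counts in Pax7-positive iMPCs, Pax7-negative iMPCs, ASC and MEFs, against 42713 and 62693 in QSC. Its log2 values of -2.74, -2.94, -3.06 and -2.76 were smaller in size than those of Dnajb1 and Dnaja4.

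Hsph1, the inducible HSP110, had 5036 counts in Pax7-positive iMPCs, 3623 in Pax7-negative iMPCs, 6040 in ASC and 6635 in MEFs, against 70753 and 95365 in QSC, and fell in all 4, with log2 values from -4.97 to -3.88. Hspa8, the constitutive cytosolic HSP70, was the most abundant member in every cultured library by RPKM, at 1054 in Pax7-positive iMPCs, 972 in Pax7-negative iMPCs, 1430 in ASC and 1118 in MEFs, and yet it was at 9437 and 8825 RPKM in QSC. Its log2 fold change was -3.79 ± 1.16 in Pax7-positive iMPCs (edgeR quasi-likelihood adjusted p = 0.027), -3.95 ± 1.17 in Pax7-negative iMPCs, -3.27 ± 1.12 in ASC and -3.67 ± 1.15 in MEFs. In counts the pair outnumbered Hspa8 by 1.77 and 2.27 times in QSC, while in cultured libraries Hspa8 outnumbered the pair by 173 times in Pax7-positive iMPCs, 31.4 in Pax7-negative iMPCs, 72.4 in ASC and 12.9 in MEFs. Hspa2, an HSP70 best known from testis, fell in all 4, with log2 values from -2.77 to -2.28, at 389 to 488 counts per cultured library against 2214 and 1514 in QSC.

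**Figure D3:**
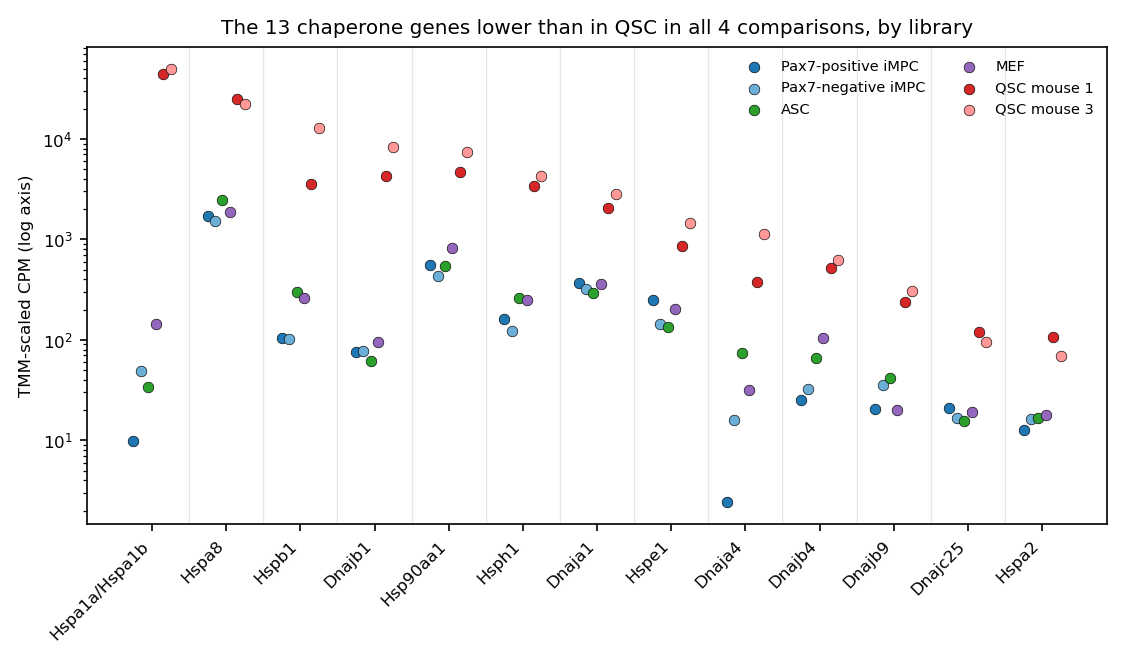
Points give the level in each library, in TMM-scaled CPM on a log axis, of the 13 members that fell in all 4 comparisons, ordered by their QSC level, with 1 colour per library. For each gene the 4 cultured points lie below both QSC points, which the choice of these genes made likely. The widest gap is that of the Hspa1a and Hspa1b pair, between 144.4 CPM in MEFs and 44640 CPM in QSC of mouse 1.

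HSP90 genes differed by compartment and by type. Hsp90aa1, the stress-inducible cytosolic form, had 17390 counts in Pax7-positive iMPCs, 12783 in Pax7-negative iMPCs, 12511 in ASC and 22150 in MEFs, against 99324 and 163149 in QSC, and fell in all 4, with log2 values from -3.81 to -2.87. Hsp90ab1, the constitutive cytosolic form, had 49443, 38107, 37819 and 42178 counts in Pax7-positive iMPCs, Pax7-negative iMPCs, ASC and MEFs, against 158328 and 181496 in QSC. Its log2 values of -2.31, -2.61, -2.27 and -2.32 did not pass, with edgeR quasi-likelihood adjusted p from 0.06 to 0.089. Under DESeq2 Hsp90ab1 passed in all 4 comparisons. By RPKM, Hsp90aa1 stood at 0.479, 0.457, 0.451 and 0.715 times Hsp90ab1 in Pax7-positive iMPCs, Pax7-negative iMPCs, ASC and MEFs, against 0.854 and 1.23 times in QSC. The inducible form was thus the scarcer one in all libraries but QSC of mouse 3.

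Small heat shock genes differed in direction. Hspb1 had 3244 counts in Pax7-positive iMPCs, 3033 in Pax7-negative iMPCs, 6992 in ASC and 6963 in MEFs, against 74850 and 283940 in QSC. Its log2 fold change was -6.30 ± 1.23 in Pax7-positive iMPCs (edgeR quasi-likelihood adjusted p = 0.0018), -6.32 ± 1.24 in Pax7-negative iMPCs, -4.77 ± 1.14 in ASC and -4.98 ± 1.15 in MEFs. QSC mice themselves differed, with mouse 1 at 0.278 times the CPM of mouse 3 (95% counting interval 0.276 to 0.28). ASC had 4 of the 7 small heat shock genes higher than QSC, where 11.9% of all genes rose.

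Hspb7, a small heat shock protein of heart and skeletal muscle, had 31 counts in Pax7-positive iMPCs, 210 in Pax7-negative iMPCs, 4327 in ASC and 123 in MEFs, against 13 and 6 in QSC. It rose by 8.70 ± 0.79 in ASC (edgeR quasi-likelihood adjusted p = 1.3e-06), by 3.98 ± 0.70 in Pax7-negative iMPCs and by 3.36 ± 0.70 in MEFs, and was at 1.16 ± 0.74 in Pax7-positive iMPCs, which did not pass. ASC was far above every other library. Hspb3, also a muscle form, had 6 counts in Pax7-positive iMPCs, 125 in Pax7-negative iMPCs, 896 in ASC and 1 in MEFs, against 12 and 13 in QSC, and rose by 6.04 ± 0.94 in ASC and 2.85 ± 0.88 in Pax7-negative iMPCs. Hspb2, which forms a complex with Hspb3, went both ways: its counts were 69 in Pax7-positive iMPCs, 932 in Pax7-negative iMPCs, 3264 in ASC and 25 in MEFs, against 364 and 322 in QSC. It rose by 3.14 ± 0.61 in ASC and fell in Pax7-positive iMPCs (-2.84 ± 0.74) and MEFs (-4.09 ± 0.80).

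Hspb8, the partner of Bag3, rose by 2.06 ± 0.57 in ASC, at 13744 counts, and fell in Pax7-positive iMPCs (-2.13 ± 0.67), at 1003, against 2646 and 3479 counts in QSC. Hspb6, known from smooth and striated muscle, had 228 counts in Pax7-positive iMPCs, 170 in Pax7-negative iMPCs, 717 in ASC and 1905 in MEFs, against 209 and 254 in QSC, and rose by 2.73 ± 0.64 in MEFs (edgeR quasi-likelihood adjusted p = 0.0059). Hspb11, a part of the transport machinery of cilia, passed in no comparison. Genes of the contractile apparatus were counted beside this class: of 20 sarcomere genes, 20 rose in ASC, 20 in Pax7-negative iMPCs and 12 in Pax7-positive iMPCs, and 1 rose and 10 fell in MEFs. Their summed level was 1586 CPM in Pax7-positive iMPCs, 6272 in Pax7-negative iMPCs, 36360 in ASC and 66.6 in MEFs, against 295.6 and 91.8 in QSC, and no sarcomere gene was at 0 in any library. Small heat shock genes that rose and that fell numbered 4 and 1 in ASC and 2 and 1 in Pax7-negative iMPCs. The numbers were 0 and 3 in Pax7-positive iMPCs, and 2 and 2 in MEFs. Beside both lists, 11.9% of all genes rose and 8.31% fell in ASC, and 12.1% and 6.61% in Pax7-negative iMPCs. The shares were 11.3% and 9.34% in Pax7-positive iMPCs, and 11.4% and 8.12% in MEFs. The part of muscle differentiation in the small heat shock gene levels was not tested.

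**Figure D4:**
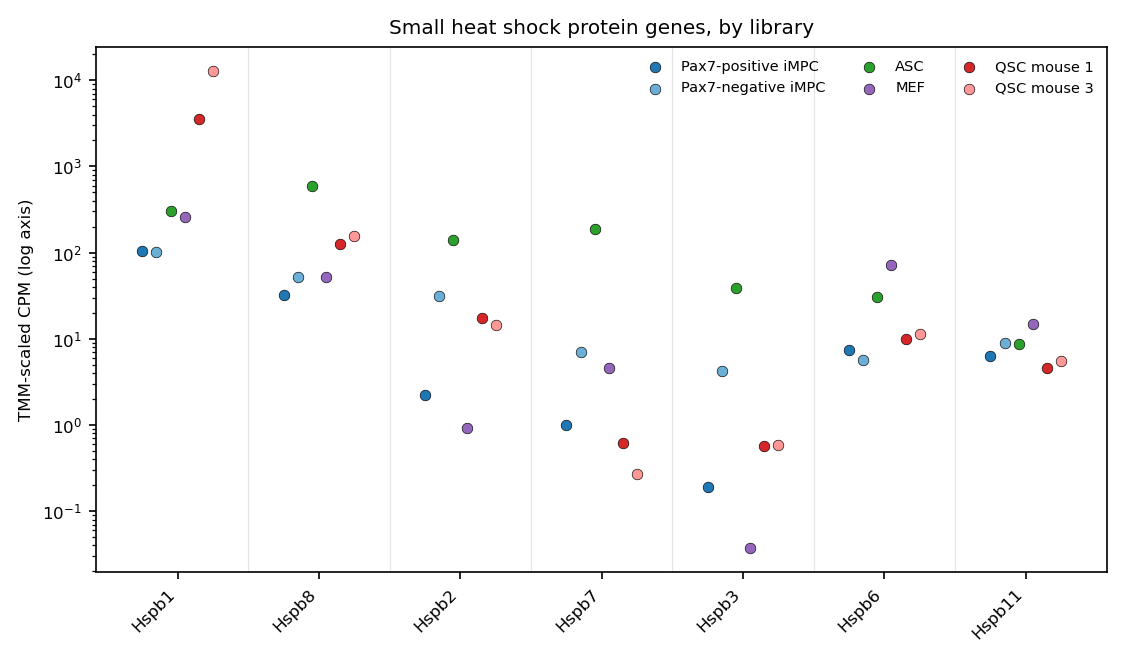
Points give the level of the 7 small heat shock genes in each library, in TMM-scaled CPM on a log axis, with 1 colour per library. Both QSC libraries are highest for Hspb1 and the ASC library for Hspb8, Hspb2, Hspb7 and Hspb3, while MEFs are highest for Hspb6 and Hspb11.

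Chaperones of the endoplasmic reticulum did not move together. Hspa5 had 31955 counts in Pax7-positive iMPCs, 31688 in Pax7-negative iMPCs, 27531 in ASC and 53410 in MEFs, against 280527 and 315634 in QSC. It fell in Pax7-positive iMPCs, with a log2 fold change of -3.75 ± 1.07 (edgeR quasi-likelihood adjusted p = 0.019), in Pax7-negative iMPCs (-3.69 ± 1.06) and in ASC (-3.54 ± 1.05), and its -2.79 ± 1.01 in MEFs did not pass. Hsp90b1, whose promoter carries the same element at 2 places, had 30921 counts in Pax7-positive iMPCs, 30391 in Pax7-negative iMPCs, 20057 in ASC and 56699 in MEFs, against 27837 and 33932 in QSC, and passed in none, with log2 values from -0.73 to 0.57. Of these abundant genes, Hspa5 passed in 3 comparisons and Hsp90b1 in none.

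Dnajc3, known as P58IPK, fell in Pax7-positive iMPCs, Pax7-negative iMPCs and ASC, with log2 values of -2.37, -2.11 and -1.99 and 3289, 3738 and 3188 counts against 12886 and 10535 in QSC, and had 5735 counts in MEFs. Dnajb9, also called ERdj4, a repressor of the stress sensor IRE1, fell in all 4, to 630 counts in Pax7-positive iMPCs, 1040 in Pax7-negative iMPCs, 975 in ASC and 542 in MEFs, against 5012 and 6737 in QSC. Dnajc10, the disulfide reductase ERdj5, rose instead, by 2.20 ± 0.59 in Pax7-positive iMPCs (edgeR quasi-likelihood adjusted p = 0.013), by 2.19 in Pax7-negative iMPCs and by 2.27 in MEFs, with 6745, 6396 and 6096 counts against 1242 and 778 in QSC. Hspa13 and Dnajb11 of the same compartment passed in none, with log2 values between -0.82 and 0.34. Of 8 members placed in this compartment from textbook knowledge, 4 fell and 1 rose in each of Pax7-positive and Pax7-negative iMPCs. In ASC 3 fell and none rose, and in MEFs 1 fell and 1 rose. Over all genes 9.34% fell and 11.3% rose in Pax7-positive iMPCs, and 6.61% and 12.1% in Pax7-negative iMPCs. The shares were 8.31% and 11.9% in ASC, and 8.12% and 11.4% in MEFs. This list may leave out other members of the compartment.

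Among the 17 other genes of endoplasmic reticulum stress and folding, 4 fell in each comparison, Xbp1, Atf4, Ddit3 and Herpud1, the first 3 being transcription factors of the response. Herpud1, a degradation factor, was at 30.7 CPM in Pax7-positive iMPCs, 34.65 in Pax7-negative iMPCs, 123.4 in ASC and 60.05 in MEFs, against 991.2 and 1305 in QSC. Those that rose numbered 1 in Pax7-positive iMPCs, 1 in Pax7-negative iMPCs, 0 in ASC and 2 in MEFs. Over all genes 11.3%, 12.1%, 11.9% and 11.4% rose, in the same order. Hyou1, an HSP110-like exchange factor, rose by 2.15 in Pax7-positive iMPCs. Pdia4, a protein disulfide isomerase, rose by 1.77 in Pax7-negative iMPCs and 2.49 in MEFs, and Sel1l by 1.71 in MEFs. Calr, Canx, Pdia3, Pdia6 and P4hb passed in no comparison. The list's median was -0.63, -0.09, -0.36 and 0.33 in Pax7-positive iMPCs, Pax7-negative iMPCs, ASC and MEFs, beside -0.03, 0.15, 0 and 0 over all genes.

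Of 9 members placed in mitochondria from textbook knowledge, 2 rose and 1 fell in the Pax7-positive iMPC library. In each of Pax7-negative iMPCs, ASC and MEFs, none rose and 1 fell. Among the 17115 tested genes, the shares called higher and lower were 11.3% and 9.34% for the Pax7-positive library. For Pax7-negative iMPCs they were 12.1% and 6.61%, for ASC 11.9% and 8.31%, and for MEFs 11.4% and 8.12%. Whether the 9 members differed from these shares was not tested. Hspa9, the mitochondrial HSP70, had 30108 counts in Pax7-positive iMPCs, 17177 in Pax7-negative iMPCs, 14025 in ASC and 14949 in MEFs, against 18026 and 11774 in QSC, and its log2 values from -0.32 to 0.48 did not pass. Hspd1 and Hspe1 build 1 chaperonin and share the element shown above, yet only Hspe1 passed. Hspd1 had 33290, 15638, 9310 and 16742 counts in Pax7-positive iMPCs, Pax7-negative iMPCs, ASC and MEFs, against 22529 and 27973 in QSC, with log2 values from -1.54 to -0.13, while Hspe1 had 7665, 4247, 3081 and 5441, against 18160 and 32098 in QSC, and fell in all 4, with log2 values of -2.23, -3.01, -3.13 and -2.51. By RPKM, Hspe1 stood at 0.714 times Hspd1 in Pax7-positive iMPCs, 0.842 in Pax7-negative iMPCs, 1.03 in ASC and 1.01 in MEFs, against 2.5 and 3.56 in QSC.

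Dnajc11, of the inner membrane organising complex, and Dnajc15, of the import motor, rose in Pax7-positive iMPCs, by 2.19 ± 0.58 and 2.04 ± 0.60 (edgeR quasi-likelihood adjusted p = 0.013 and 0.023). Dnajc11 had 5846 counts in Pax7-positive iMPCs, 3339 in Pax7-negative iMPCs, 2528 in ASC and 1754 in MEFs, against 1015 and 755 in QSC. Of the 8 other genes of mitochondrial protein quality, Grpel2, an exchange factor of Hspa9, rose in ASC by 2.10 ± 0.64, and by edgeR's quasi-likelihood test 0 passed in the other 3 comparisons; at an unadjusted p under 0.05 there were 2 in Pax7-positive iMPCs, 1 in Pax7-negative iMPCs and 0 in MEFs, and DESeq2 called 0 in each of these. The medians were 0.92, 0.46, 0.22 and 0.17 in Pax7-positive iMPCs, Pax7-negative iMPCs, ASC and MEFs. The 8 subunits of the cytosolic chaperonin TRiC had 0 called in each comparison by edgeR, 0 at an unadjusted p under 0.05 and 0 by DESeq2, and medians of 0.03, -0.34, -0.30 and -0.22.

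**Figure D5:**
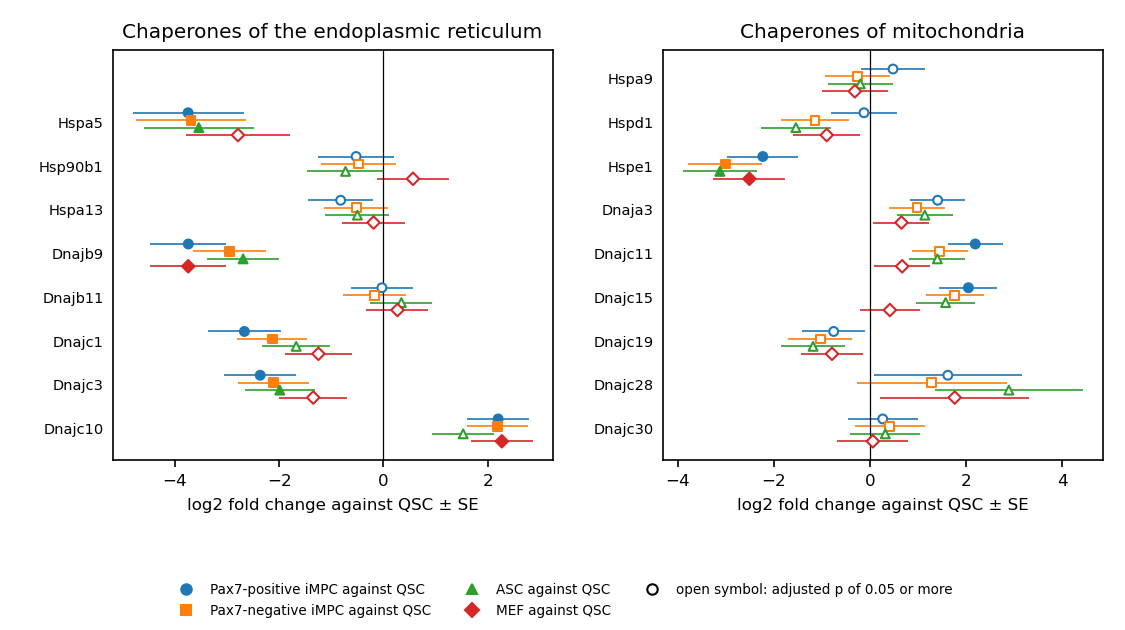
Points with SE bars give log2 fold changes against QSC for 8 members of the endoplasmic reticulum (left) and 9 of mitochondria (right), with 1 symbol per comparison, open where the adjusted p was 0.05 or more. Hspa5, Dnajb9, Dnajc1 and Dnajc3 lie to the left and Dnajc10 to the right, and in mitochondria Hspe1 lies left while Hspa9 and Hspd1 stay nearer to 0.

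Hspa12b, Dnajc14 and Dnajc16 rose in all 4 comparisons. These 3 of 67 stood beside 4.59% of all genes, so the share of members was close to the background. Under library size scaling 4 members rose in all 4, these 3 included, against 4.7% of all genes. The number was 1 under DESeq2, against 4.83% of all genes, 1 with DESeq2-style size factors in edgeR, against 3.76%, and 1 with a filter of 5 CPM, against 4.77%. Hspa12b, a divergent HSP70 known from endothelium, had 519 counts in Pax7-positive iMPCs, 350 in Pax7-negative iMPCs, 131 in ASC and 315 in MEFs, against 24 and 19 in QSC, and rose by 4.05 ± 0.86, 3.56 ± 0.85, 2.49 ± 0.85 and 3.55 ± 0.85 in these groups (edgeR quasi-likelihood adjusted p = 0.0032, 0.0075, 0.046 and 0.0071). Of 7 endothelial markers 0 rose in any comparison. Those that fell numbered 5 in Pax7-positive iMPCs, 1 in Pax7-negative iMPCs, 5 in ASC and 4 in MEFs. Over all genes 9.34%, 6.61%, 8.31% and 8.12% fell, in the same order. The markers' summed level was 10.84, 35.05, 6.03 and 26.3 CPM in these groups, against 134.1 and 35.1 in QSC of mouse 1 and mouse 3. In these cultured libraries 2, 0, 1 and 2 markers were at 0. The part of endothelial cells in the level of Hspa12b was not tested.

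Dnajc14, a membrane-bound DnaJ protein, had 2113 counts in Pax7-positive iMPCs, 2525 in Pax7-negative iMPCs, 1620 in ASC and 2421 in MEFs, against 386 and 308 in QSC, and rose by 2.07 to 2.48. Dnajc16 had 625, 499, 509 and 294 counts in Pax7-positive iMPCs, Pax7-negative iMPCs, ASC and MEFs, against 52 and 55 in QSC, and rose by 2.14 to 3.14. Dnajc9, a co-chaperone of histones, rose only in Pax7-positive iMPCs among the comparisons run, by 2.69 ± 0.63 (edgeR quasi-likelihood adjusted p = 0.0058), with 5602 counts there, 2198 in Pax7-negative iMPCs, 1916 in ASC and 1971 in MEFs, against 828 and 360 in QSC; whether it differed between the groups was not tested. Of 15 proliferation genes, 13 rose in Pax7-positive iMPCs, 6 in Pax7-negative iMPCs, 7 in ASC and 9 in MEFs, and their summed level was highest in Pax7-positive iMPCs, at 3498 CPM against 863.2 and 248.2 CPM in QSC. The part of cell division in the level of Dnajc9 was not tested.

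Of the remaining members that fell, Dnajb2 had 86 counts in Pax7-positive iMPCs, 315 in Pax7-negative iMPCs, 424 in ASC and 362 in MEFs, against 1122 and 1527 in QSC, and fell in all but ASC, with -4.47 ± 0.82 in Pax7-positive iMPCs (edgeR quasi-likelihood adjusted p = 0.0011). Dnajc25 had 655, 498, 365 and 511 counts in Pax7-positive iMPCs, Pax7-negative iMPCs, ASC and MEFs, against 2487 and 2123 in QSC. Hspa4l, an HSP110, fell in Pax7-positive iMPCs alone among the comparisons run (-2.14 ± 0.70), and Dnajc21, a DnaJ protein of ribosome assembly, in MEFs alone (-2.27 ± 0.67); whether these differed between groups was not tested.

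Of 24 genes of the HSF1 pathway and its co-chaperones, those that rose and those that fell numbered 1 and 2 in Pax7-positive iMPCs, 2 and 2 in Pax7-negative iMPCs, 2 and 1 in ASC, and 2 and 3 in MEFs, beside the shares of all genes given above (11.3% and 9.34% in Pax7-positive iMPCs), with medians of -0.32, -0.09, -0.09 and -0.19. Bag3, the exchange factor that links HSP70 to small heat shock proteins, fell in all 4, to 1277 counts in Pax7-positive iMPCs, 2386 in Pax7-negative iMPCs, 3013 in ASC and 2482 in MEFs, against 76288 and 85120 in QSC. Cryab, the small heat shock protein alpha B-crystallin, had 590, 3034, 15739 and 5296 counts in Pax7-positive iMPCs, Pax7-negative iMPCs, ASC and MEFs, against 75868 and 61160 in QSC, and fell in all groups but ASC, where the edgeR quasi-likelihood adjusted p was 0.055. Cryab lies head to head with Hspb2 in mouse, but the genes did not keep 1 ratio: by CPM Cryab was at 8.55, 3.26, 4.82 and 212 times Hspb2 in Pax7-positive iMPCs, Pax7-negative iMPCs, ASC and MEFs, against 208 and 190 times in QSC. Hsf1 itself was at 72.5, 48.4, 74.04 and 65.2 CPM in these cultured groups, against 100.2 and 139.1 CPM in QSC, and passed in none.

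Immediate early genes, which cell isolation is known to induce, were high in the libraries in which the inducible chaperones were high. Of 25 such genes, 22 fell in Pax7-positive iMPCs, 21 in Pax7-negative iMPCs, 21 in ASC and 22 in MEFs, and they took 0.234%, 0.28%, 0.168% and 0.269% of counts in these libraries, against 2.46% and 3.12% in QSC; 1 of them was at 0, in Pax7-positive iMPCs. Their part in the chaperone levels was not tested. Only QSC are labelled as quiescent, and the other libraries came from cultured cells, so isolation and quiescence cannot be told apart here. Both iMPC groups were sorted as well, and the part of sorting was not tested. Traces of other cells also differed: 7 immune markers summed to 20.01, 39.8, 21.97 and 11.9 CPM in Pax7-positive iMPCs, Pax7-negative iMPCs, ASC and MEFs, against 213.7 and 81.7 CPM in QSC, and 6 erythroid markers to between 0.483 and 2.95 CPM in cultured libraries, against 1300 and 20.1 CPM in QSC. Of the immune markers, those that rose and those that fell numbered 1 and 4 in Pax7-positive iMPCs, 1 and 3 in Pax7-negative iMPCs, 1 and 4 in ASC, and 0 and 1 in MEFs; of 5 erythroid markers tested, 5, 4, 5 and 4 fell. The members' summed share was higher in mouse 3, and both marker sums were higher in mouse 1. The part of these cells in the chaperone levels was not tested.

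The 2 QSC mice were set side by side with no test. At 4-fold or more with 5 CPM in the higher library, 1 member (Hspa1l) was lower and 0 were higher in mouse 1, where 0.73% of all genes were lower and 1.71% higher; at 2-fold 4 were lower and 2 higher, against 6.35% and 7.29%. Mouse 1 had Dnaja4 at 0.331 times (95% counting interval 0.322 to 0.339), Dnajb5, a DnaJ protein of muscle and heart, at 0.27 times (0.241 to 0.301) and Dnajb1 at 0.516 times (0.512 to 0.52) the CPM of mouse 3. The pair itself differed little, at 0.892 times. Hspa1l, a testis HSP70 gene next to the pair, had 48 counts in mouse 1 and 439 in mouse 3, and it fell in Pax7-positive and Pax7-negative iMPCs. It belongs to the same gene family as the pair, and how reads were shared among these genes was not tested, so its values are uncertain. In the other direction Dnajc9 was 2.43 times (2.14 to 2.75) higher in mouse 1, the mouse with the larger proliferation sum. Of the 68 members 36 were higher in mouse 3, among them 10 of the 13 that fell in all 4 comparisons and 26 of the 55 others. The 13 were chosen with these same QSC libraries and the share of all genes was not counted. No trait of the 13 is therefore read from these numbers.

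Pax7-positive iMPCs were then set beside the other cultured libraries, with 1 library each, no test and a rule of size of at least 4-fold with 5 CPM in the higher library. Against Pax7-negative iMPCs, 4 members were lower and 0 higher, where 4.35% of all genes were lower and 0.134% higher. The 4 were the Hspa1a and Hspa1b pair at 0.202 times (95% counting interval 0.178 to 0.229), Dnaja4 at 0.15 times, Hspb2 at 0.0705 times and Hspb7 at 0.141 times. Sarcomere genes were lower in the same library, as given above. At 2-fold, 5 members were lower and 2 higher, against 8.74% and 3.25% of all genes; the 2 were Hspd1, at 2.03 times, and Dnajc9, at 2.43 times.

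Against ASC, 8 members were lower and 0 higher, where 5.13% of all genes were lower and 2.31% higher. Of the 8, 5 were small heat shock genes, Hspb2, Hspb3, Hspb6, Hspb7 and Hspb8, with Hspb8 at 0.0545 times (0.0511 to 0.0581) and Hspb7 at 0.00535 times (0.00363 to 0.00761), and the others were Dnaja4, Dnajb2 and Dnajb5. At 2-fold, 15 were lower and 4 higher, against 10.3% and 6.44% of all genes. Against MEFs, 5 members were lower and 0 higher, where 5.73% of all genes were lower and 3.25% higher. They were the pair at 0.0682 times (0.0605 to 0.0766), Dnaja4 at 0.0754 times, Dnajb2, a DnaJ protein best known from neurons, at 0.205 times, Dnajb4 at 0.243 times and Hspb6 at 0.103 times. At 2-fold, 12 were lower and 5 higher, against 11.9% and 8.51% of all genes. Dnaja4 was past the rule in all 3 of these comparisons, which share the Pax7-positive library, and was lowest there of all 6 libraries.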

How the data were processed

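Raw gene counts of 6 libraries and an RPKM table pairing Ensembl identifiers with symbols were deposited by the authors. The submitters' processing notes name edgeR, Picard 1.100, HTSeq 0.6.0, STAR 2.3.0 and the build mm9, without their roles. The sources used here do not give the annotation or the strand setting, so overlapping genes (the 2 named Hspa14) are uncertain. RNA was DNase-treated and poly(A)-selected and the library kit directional, per the labels' protocols. Counts were fitted in R 4.3.3 with edgeR 4.0.16 (filterByExpr by group, TMM, 1 coefficient per group over all 6 libraries, quasi-likelihood F test, Benjamini-Hochberg); DESeq2 1.42.0 was an alternative. The fit had 1 residual degree of freedom. Tested on simulated data, it called 12 of 50 genes changed 4-fold and 40 of 50 changed 16-fold for Pax7-positive iMPCs against QSC. For Pax7-negative iMPCs, ASC and MEFs it called 7, 8 and 4 of 50 changed 4-fold, and 46, 41 and 43 changed 16-fold. Members and gene lists were chosen with earlier results of these data known. Any member outside the DnaJ classes could be named; DnaJ genes were named if called in all 4 comparisons, among the 8 largest called changes or the 8 highest mean RPKM values, and other DnaJ genes of the endoplasmic reticulum and mitochondria, Dnajb5 and the members near the count minimum were named after their values were seen. The lists were HSF1 and co-chaperones, TRiC, endoplasmic reticulum stress, mitochondrial protein quality, immediate early, sarcomere and proliferation genes, and satellite and myogenic, fibroblast, endothelial, immune and erythroid markers.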

Additional observations from a re-analysis of the deposited data

How the results depend on the processing

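Scaling was the choice that mattered most. With library size alone, the members that fell numbered 8 in Pax7-positive iMPCs, 6 in Pax7-negative iMPCs, 4 in ASC and 6 in MEFs, and their median log2 fold change was 0.311, 0.194, 0.429 and -0.0045, beside a higher median of all genes. A filter of 5 CPM gave medians of -0.686 in Pax7-positive iMPCs, -0.97 in Pax7-negative iMPCs and -0.312 in ASC; fewer genes were then tested. For Pax7-negative iMPCs the median was -0.643 with DESeq2-style size factors, -0.622 with no filter and -0.676 with Hspa1a and Hspa1b apart. Leaving out each QSC mouse gave medians from -0.417 to -0.24 in Pax7-positive iMPCs, -0.58 to -0.568 in Pax7-negative iMPCs, -0.202 to -0.0301 in ASC, where the value nearer 0 is without mouse 3, and -0.645 to -0.404 in MEFs; without mouse 3 the size rule, an alternative chosen after seeing the data, found 4 members higher in Pax7-positive iMPCs and without mouse 1 it found 7. The tests could not be fitted without a mouse, as no residual degrees of freedom remain. With 2-fold in place of 4-fold, Pax7-positive iMPCs had 2 members higher than Pax7-negative iMPCs, 4 higher and 15 lower than ASC, and 5 higher and 12 lower than MEFs; with 1 CPM in place of 5 CPM, 1 was higher than ASC and 1 higher than MEFs. The cause of these shifts was not tested. No paired analysis was possible because the groups share fewer than 2 replicate numbers. With 2 QSC mice and lone cultured libraries, 4-fold changes were often missed on simulated data.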
